A study of Brassica napus with 8 samples.

Results

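Rapeseed (Brassica napus) is an oil crop whose nuclear genome joins an A and a C subgenome. Polyadenylated transcripts of cultivar Zhongshuang 11 seed after 48 h of germination were compared with those of dry seed. The comparison used 4 of the 8 libraries of the series, 2 per tissue, and the libraries were chosen by their labels alone. The other 4 libraries, from young leaf and from seed labelled 50 DPA, served to estimate the spread and to describe where the same transcripts stood elsewhere. All 8 libraries came from the same cultivar, with no treatment or genetic change named in the labels. The labels do not say under which conditions the seeds germinated, whether dry and germinating seed came from one seed lot, or whether replicate libraries represent separate plants. P-values therefore cover the variation of these 8 libraries alone, and that variation may be technical. The germinating libraries were named and numbered apart from all the others. Whether they were prepared and sequenced with the others is not stated in the labels. Any difference of that kind cannot be told apart from germination. The gene IDs carry a chromosome prefix but no gene name in the sources used here, so the tissue labels could not be checked against marker genes and members of pathways could not be named.

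A dry seed holds a store of messenger RNA laid down during maturation. In many plants this store includes abundant messages for storage proteins, oil-body proteins and late embryogenesis abundant proteins, which protect cells during drying. After water uptake the store is degraded or used, while new transcripts are made for reserve use, cell wall loosening, growth and, later, photosynthesis. These statements are background from other work on seeds.

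Library totals were 35418139 and 27635445 counts in dry seed and 55721357 and 40730533 counts in germinating seed. Counts were spread over far more genes after germination. The most abundant genes that together held 50% of all counts numbered 1226 and 1123 in dry seed, by library, against 3173 and 3233 after germination. Both germinating libraries thus needed more genes than either dry seed library, and the groups did not overlap (exact permutation test, 2-sided p = 0.333, the smallest that 2 against 2 libraries allow). The 10 most abundant genes alone took 6.60% and 7.21% of counts in dry seed and 2.13% and 2.05% at 48 h. These values describe the makeup of the RNA in a library. In whole seeds, fewer cells of a type and less RNA per cell cannot be told apart, and no value here gives the amount of RNA per seed.

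Most genes differed between the stages. Of 59062 genes tested, 44.7% rose and 28.4% fell (26415 and 16802 genes, adjusted p under 0.05 in edgeR's quasi-likelihood test). Among genes with counts in all 4 libraries, 15832 rose and 15680 fell, with median fitted changes of 3.49-fold and 3.30-fold. Genes without counts in some of these libraries, 10583 of the risen and 1122 of the fallen, were left out of these folds, because their fitted change rests on the prior count of the fit. That leaves out far more of the risen genes, so the folds do not compare the depth of rises and falls. Directions are relative to TMM scaling, which assumes that most genes do not change. Rises made up 61.1% of the calls on that scale and 73.1% when libraries were scaled by total counts, where the median gene stood at a log2 change of 1.21 in place of 0.59.

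The more abundant a stored transcript was, the deeper it fell. Levels are TMM-normalized CPM, that is, counts relative to a library total scaled by TMM, and they are not divided by gene length, so a level class mixes long and short genes. Genes were placed in classes by their level in dry seed library 1, and the change to 48 h was taken against dry seed library 2, so that noise of one library could not produce the fall. The 94 genes with 1000 CPM or more had a median of 2128 CPM in dry seed library 2 and of 6.63 and 5.99 CPM in the germinating libraries. Their median log2 change was -8.89, a fall to 474-fold lower, with the middle 50% of genes between -10.07 and -5.68. Genes from 300 to 1000 CPM changed by a median log2 of -3.27 (293 genes), and those from 100 to 300 CPM by -1.87 (1382 genes). Below these, the medians were -1.15 from 30 to 100 CPM (5173 genes), -0.57 from 10 to 30 CPM (8352 genes) and 0.05 from 3 to 10 CPM (10331 genes). From 1 to 3 CPM the median was 0.68 (8496 genes). Among genes with at least 1 CPM the level and the later change had a Spearman's rho of -0.400 across 34121 genes, which share the 4 libraries and are not independent replicates.

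**Figure D1:**
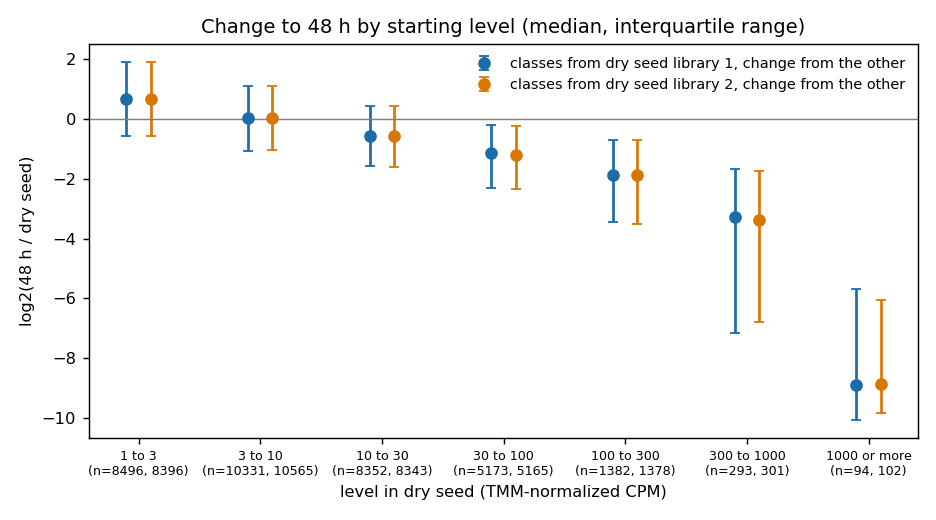
Change from dry seed to 48 h (log2 ratio, vertical axis) against the level in dry seed (TMM-normalized CPM, horizontal axis). Points are class medians, bars span the middle 50% of genes, and the colours show which dry seed library set the classes; the medians fall from 0.68 at 1 to 3 CPM to -8.89 at 1000 CPM or more, and both splits lie close together.

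Exchanging the roles of the dry seed libraries gave medians of -8.87 in the highest class (102 genes), -3.39, -1.88, -1.19, -0.58, 0.06 and 0.68 in the same order. In the highest class, the median difference between libraries of a tissue was 0.12 on the log2 scale in dry seed and 0.15 at 48 h, far below the fall. The scale shifts all classes alike. With total counts alone the highest class stood at -8.26 and the class from 30 to 100 CPM at -0.51, and the gap between them was -7.75, against -7.74 with TMM factors. The sign of the middle classes does rest on the scale, since the class from 3 to 10 CPM had a median of 0.68 with total counts and -0.03 with DESeq2 size factors.

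Calls followed the same order. In the fit without dry seed library 1, 26.7% of all genes tested fell. In the classes set by that library, 97.9% fell at 1000 CPM or more (92 of 94), 91.1% from 300 to 1000 CPM (267 of 293) and 83.3% from 100 to 300 CPM (edgeR quasi-likelihood test, adjusted p under 0.05). The share was 54.4% from 10 to 30 CPM and 19.6% from 1 to 3 CPM. With classes from dry seed library 2 and calls without it, 98.0% fell at 1000 CPM or more (100 of 102), against 27.6% of all genes tested. Power to call a fall grows with the count, so the shares also carry that difference between classes. Taken over all 1769 genes with at least 100 CPM, the median fall was 4.63-fold and 85.4% fell, with 77.1% under total counts alone.

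The fall emptied a large part of the dry seed library. Genes with 1000 CPM or more in dry seed library 1 took 24.2% of the counts of dry seed library 2, and 1.82% and 1.73% of those of the germinating libraries. Genes from 300 to 1000 CPM went from 13.0% to 4.95% and 4.86%. Genes from 30 to 100 CPM took 23.4% in dry seed library 2 and 25.3% and 25.2% at 48 h. These are shares of total counts, a scale on which the median log2 change of that class was -0.51, against -1.15 with TMM factors. Genes from 3 to 10 CPM went from 5.27% to 14.1% and 14.3%. Genes without a count in dry seed library 1 went from 0.0512% to 5.92% and 6.10%.

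The most abundant stored transcripts did not fall by one common amount. Of 93 genes with at least 1000 CPM in both dry seed libraries, 4 stood below 1 CPM and 55 between 1 and 10 CPM at 48 h. Between 10 and 30 CPM there were 9, between 30 and 100 CPM 5, and at 100 CPM or more 20, of which 9 lay below 300 CPM. Of 268 genes between 300 and 1000 CPM in both, 35 stood between 1 and 3 CPM, 24 between 3 and 10 CPM, 31 between 10 and 30 CPM and 73 between 30 and 100 CPM. The first class thus had most genes between 1 and 10 CPM and a spread above that. Its dip from 30 to 100 CPM rests on 5 genes against 9 in the class on either side. The dip of the second class, at 3 to 10 CPM, was shallow. Genes from 100 to 300 CPM in dry seed had a single peak, with 430 of 1238 genes between 30 and 100 CPM.

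**Figure D2:**
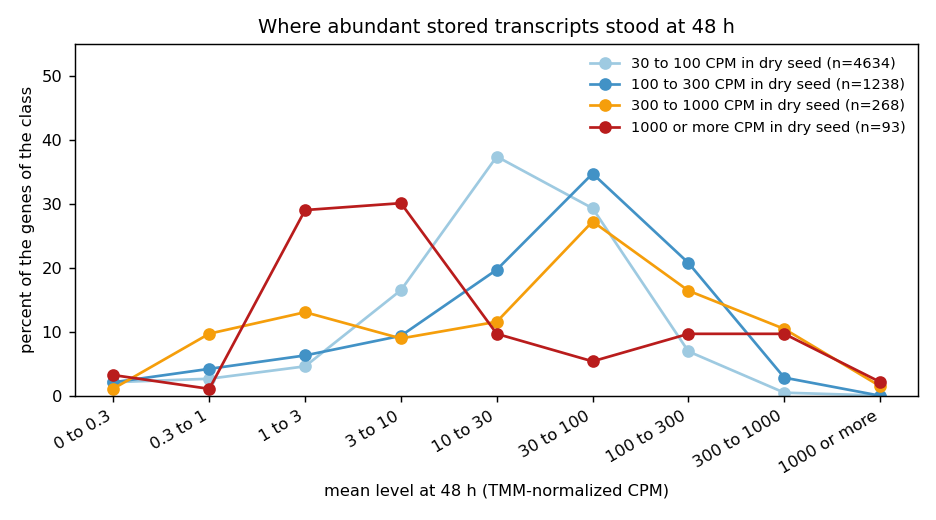
Level at 48 h (mean of the libraries, TMM-normalized CPM, horizontal axis) of genes grouped by their level in both dry seed libraries (coloured lines), as a percent of each group (vertical axis). The group at 1000 CPM or more peaks between 1 and 10 CPM. Its small second rise goes from 5 genes at 30 to 100 CPM to 9 genes at 100 to 300 CPM. The groups from 30 to 300 CPM each have 1 peak.

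The 371 genes with at least 300 CPM in both dry seed libraries were then divided by their level at 48 h. Of these, 152 stood below 10 CPM in both germinating libraries, 96 at 100 CPM or more in both, and 123 elsewhere. The genes that fell low started from a median of 814 CPM in dry seed and those that stayed high from 514 CPM. Their median levels at 48 h were 2.12 and 1.91 CPM against 241 and 231 CPM in the germinating libraries, which is what defined them. Young leaf and 50 DPA seed had no part in that division. In leaf, the genes that fell low had medians of 0.0468 and 0.0448 CPM, and those that stayed high had medians of 82.0 and 84.1 CPM. Of the former, 73.0% (111 of 152) stood below 1 CPM in both leaf libraries, against 5.21% (5 of 96) of the latter and 34.8% of all 371. Of the genes that stayed high, 92.7% (89 of 96) reached 10 CPM in both leaf libraries. The share was 9.87% (15 of 152) of those that fell low and 52.0% (193) of all 371. The share among other genes with 100 CPM or more at 48 h is not given here. In 50 DPA seed the order was the reverse, with medians of 598 and 600 CPM for the genes that fell low and 172 and 181 CPM for those that stayed high. At least 100 CPM in both 50 DPA libraries was reached by 84.2% of the former, 80.2% of the latter and 74.7% of all 371. The division was made after the levels at 48 h were seen, so these shares are a description and carry no test. With total counts alone it held 124 and 93 genes, of which 75.0% stood below 1 CPM and 93.5% reached 10 CPM in leaf, respectively.

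The reverse view placed genes in classes by their level at 48 h. Genes with 300 to 1000 CPM in germinating library 1 stood a median of 2.61-fold above dry seed in germinating library 2 (130 genes), and those from 100 to 300 CPM 2.34-fold (1017 genes). The 293 genes with 300 to 1000 CPM in dry seed library 1 stood 9.62-fold lower at 48 h by their median. On the scale of total counts these medians were 4.07-fold higher for the 130 genes and 6.18-fold lower for the 293, so the gap depends in part on the scale. Changes of at least 256-fold did not run the same way in every class when genes without counts were included. Such a rise was seen in 13 of the 130 genes and such a fall in 59 of the 293. From 100 to 300 CPM it was a rise in 58 of 1017 genes and a fall in 60 of 1382, and from 30 to 100 CPM a rise in 201 of 4420 and a fall in 47 of 5173. With the offset of 0.1 CPM, a gene at 30 CPM without dry seed counts already exceeds 256-fold. Genes without a count in both dry seed libraries numbered 6, 36 and 173 in these 48 h classes, from the highest down. In the dry seed classes 1, 0 and 6 genes had no count at 48 h. Among genes with counts in all 4 libraries, 33 called genes rose and 269 fell by a fitted 256-fold or more. That restriction left out 10583 risen and 1122 fallen genes, so these numbers do not compare how often deep rises and deep falls occurred. The class of 1000 CPM or more at 48 h held 9 and 6 genes by library, too few for a trend. In both germinating libraries 6 genes reached that level, and all of them had been present in dry seed, at means from 102 to 2129 CPM. Of these, 5 rose and 0 fell (edgeR quasi-likelihood test, adjusted p under 0.05), and 4 stood below 1 CPM in both leaf libraries.

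Transcripts that appeared during germination were many and mostly of low level. Of 106059 IDs, 3.54% (3750) had 0 counts in both dry seed libraries and at least 1 CPM, by total counts, in both germinating ones. Their levels at 48 h had medians of 2.64 and 2.59 CPM in the germinating libraries, with the middle 50% between 1.40 and 6.20 CPM in library 1. In germinating library 1, 607 of them reached 10 CPM, 42 reached 100 CPM and 6 reached 300 CPM. In germinating library 2 the numbers were 599, 42 and 7. The highest stood at 656 and 577 CPM. Together the 3750 genes took 4.49% and 4.63% of the counts at 48 h. The germinating libraries agreed on these levels, with a median difference of 0.19 on the log2 scale and a difference over 2-fold in 13 genes. With 3 read pairs (6 counts) as the floor of a dry seed library, 0.191 and 0.251 CPM, the rise was at least 11.95-fold in the median gene, and at least 100-fold in 280 genes. The floor covers counting error only. All 3750 passed the test, which the choice of members made nearly certain.

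**Figure D3:**
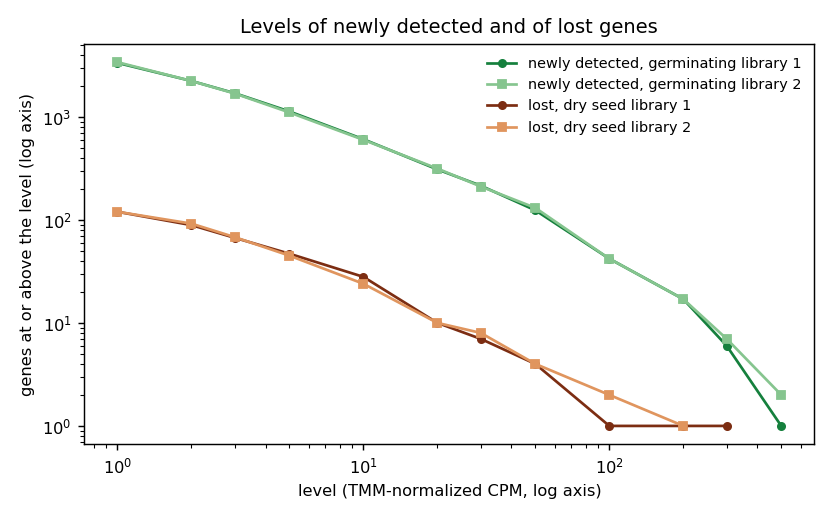
Number of genes (vertical log axis) at or above a level (TMM-normalized CPM, horizontal log axis). Green lines show the 3750 newly detected genes in the germinating libraries and brown lines the 120 lost genes in the dry seed libraries; at 10 CPM they stand at 607 and 599 against 28 and 24 genes.

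Most newly detected transcripts were also present in leaf, but less often than the other transcripts detected at 48 h. At least 1 CPM in both leaf libraries was found for 61.0% of them (2287), against 91.3% of the other 38161 IDs that reached 1 CPM at 48 h. In 50 DPA seed the shares were 13.3% (500) and 78.8%. In neither tissue was 1 CPM reached by 35.6% of the newly detected genes (1336) and by 5.20% of the others, and 398 of the newly detected had no count at all in leaf or 50 DPA seed. Where a newly detected gene was also present in leaf, its level was lower at 48 h than in leaf in 1525 of 2287 cases, with medians of 2.93 and 5.27 CPM. The number of such cases among the other IDs is not given here. Newly detected genes that reached 10 CPM at 48 h (604) had similar shares, 65.9% in leaf and 19.7% in 50 DPA seed. The other IDs were not matched to the newly detected genes in level, and their shares at 10 CPM are not given here.

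Transcripts left without any count at 48 h were few. Genes with at least 1 CPM in both dry seed libraries and 0 counts in both germinating ones numbered 120, which is 0.113% of all IDs. Their levels in dry seed were low, with medians of 3.68 and 3.72 CPM, and 28 and 24 of them reached 10 CPM in the dry seed libraries. Against the floor of 6 counts in germinating seed, the median lost gene was at least 37.2-fold lower. Many more genes crossed the level of 1 CPM. By total counts, 2231 genes went from at least 1 CPM in both dry seed libraries to less than 1 CPM in both germinating ones, and 10655 genes crossed it upward. With TMM factors the numbers were 3050 and 8598. A level of 0 is harder to reach in the deeper germinating libraries, so the 120 lost and 3750 newly detected genes are not directly comparable. The number of lost genes also moved with each germinating library, to 276 without library 1 and 198 without library 2. Of the lost genes, 35.0% (42) had at least 1 CPM in 50 DPA seed and 13.3% (16) in leaf. The shares among other genes with at least 1 CPM in dry seed are not given here.

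Transcripts that persist were defined by the interval of the change and not by a missed threshold. The word refers only to a similar level at both stages. Stored RNA that remained cannot be told apart from RNA newly made. A gene was called persisting when it had at least 10 CPM in both tissues and the 95% interval of its log2 fold change lay within a 2-fold change in either direction. Of 9728 genes with that level in both tissues, 43.8% (4265) persisted, which is 7.22% of all genes tested. Their median log2 change was -0.05, with the middle 50% of genes between -0.36 and 0.30, and the median SE was 0.12. Small changes could still pass the test, and 1051 of the persisting genes rose and 1272 fell (edgeR quasi-likelihood test, threshold as above). Among the 1946 genes of that level that did not pass it, 1942 had an interval within 2-fold.

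Persistence became rarer with the level in dry seed. It was found in 29.4% of genes from 10 to 30 CPM (2456 of 8363), 28.3% from 30 to 100 CPM, 21.9% from 100 to 300 CPM and 13.6% from 300 to 1000 CPM (40 of 295). These are shares of all tested genes of a dry seed class, including those below 10 CPM at 48 h, which could not count as persisting. That bar can lower the share of the class from 10 to 30 CPM. Of 100 genes with a mean of at least 1000 CPM in dry seed, 98 fell, 1 rose and 1 did not pass the test. Of the same 100 genes 2 persisted, 1 of them among those that fell. The persisting genes were widely present, with at least 1 CPM in leaf and in 50 DPA seed in 99.1% of them, but the same was true of 98.7% of all genes with 10 CPM in both stages. Which genes persisted depended on the scale. With total counts alone 4711 genes persisted, of which 2550 were among the 4265, and with DESeq2 size factors 4161, of which 3984 were shared. All 3 scales had 2298 genes in common.

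Individual IDs show the size of these changes. ZS11A04G028590 lost the most CPM, from 12423 and 14054 CPM in the dry seed libraries to 7.74 and 7.91 CPM at 48 h. The libraries of the tissues lay far apart, and the log2 change was -10.72 ± 0.14 (SE, edgeR adjusted p = 6.05e-13). This transcript was at 23.8 and 24.4 CPM in 50 DPA seed and at 0 and 0.0448 CPM in leaf, so it was abundant in dry seed alone among the 4 tissues. ZS11C04G069800 went from 9226 and 10551 CPM to 13.1 and 14.8 CPM, a log2 change of -9.47 ± 0.13 (SE, edgeR adjusted p = 1.52e-12). It stood at 321 and 327 CPM in 50 DPA seed and had no count in leaf.

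The largest gain as a difference in CPM was that of ZS11A05G024110, which stood at 1199 and 1217 CPM in dry seed and at 3728 and 3497 CPM at 48 h. Every germinating library lay above every dry seed library, and the log2 change was 1.58 ± 0.08 (SE, edgeR adjusted p = 1.2e-08). It was at 339 and 347 CPM in 50 DPA seed and had no count in leaf, so its level was higher at each later seed stage. ZS11C04G060870 rose from 104 and 99.5 CPM to 1253 and 1184 CPM, a log2 change of 3.58 ± 0.11 (SE, edgeR adjusted p = 7.14e-11). In leaf it stood at 0.328 and 0.157 CPM.

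Of the persisting genes, ZS11A01G001390 had the highest mean level over both stages, with 2182 and 2076 CPM in dry seed and 2412 and 2219 CPM at 48 h. The log2 change of 0.12 had a 95% interval from -0.05 to 0.29. With total counts alone the log2 change of this gene was 0.74, and it still counted as persisting. ZS11C02G001640 stood at 871 and 957 CPM in dry seed and at 1358 and 1275 CPM at 48 h, with an interval from 0.32 to 0.74, and it rose by the test (edgeR adjusted p = 0.000365). With total counts alone its log2 change was 1.15 and it no longer counted as persisting. Both were far lower in leaf, at 17.1 and 15.8 CPM for the first and 0 and 0.0448 CPM for the second.

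**Figure D4:**
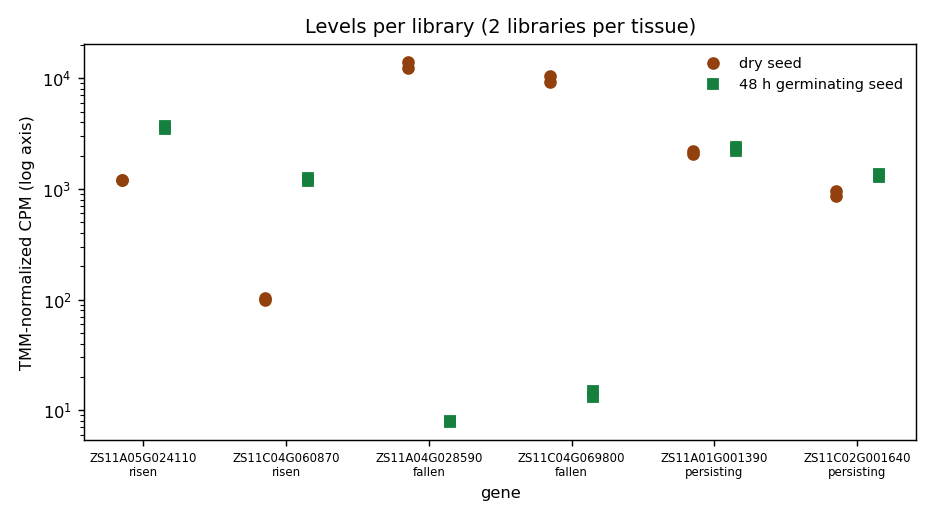
Levels of 6 genes (TMM-normalized CPM, vertical log axis) in each dry seed library (brown circles) and each germinating library (green squares). The fallen genes drop from above 9226 CPM to below 14.8 CPM, while the persisting genes stay between 871 and 2412 CPM.

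IDs with an A prefix and with a C prefix behaved nearly alike. A prefixes took 50.6% and 50.7% of all counts before germination and 50.9% and 50.9% after it, by library. The mean share was 50.6% ± 0.122 in dry seed and 50.9% ± 0.0100 at 48 h (SD, n = 2), a difference of 0.238 percentage points (exact permutation test, 2-sided p = 0.333, the smallest that 2 against 2 libraries allow). Without the 100 most abundant genes of each of the 4 libraries (203 genes in all) the shares were 49.6% and 50.1%, a difference of 0.495 points. The most abundant stored transcripts were split between the prefixes, with 49 A and 45 C IDs among the 94 genes at 1000 CPM or more in dry seed library 1. Their median log2 change was -8.49 for A and -9.33 for C IDs, with the middle 50% of genes from -9.81 to -4.54 and from -10.10 to -7.90. From 30 to 100 CPM the medians were -1.12 (2561 genes) and -1.17 (2606 genes).

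Among genes tested, 45.7% of 27589 A IDs and 43.9% of 31359 C IDs rose, against 44.7% of all, and 28.6% and 28.3% fell, against 28.4% of all (edgeR quasi-likelihood test, threshold as above). By chromosome prefix, the share that rose ran from 43.4% to 47.9% over 10 A prefixes and from 42.0% to 45.5% over 9 C prefixes. The ranges overlapped, with 5 of the A prefixes above every C prefix. The prefix C05, singled out after its values were seen, had the lowest share that rose, 42.0%, and the highest share that fell, 32.1%. Newly detected genes made up 4.16% of the 44373 A IDs and 3.11% of the 61069 C IDs. Much of that gap lay in IDs without enough counts to be tested, since 62.2% of A and 51.4% of C IDs were tested. Of tested genes, 6.69% of A and 6.06% of C IDs were newly detected, with median levels at 48 h of 2.74 and 2.55 CPM. Persisting genes made up 43.5% of A and 44.2% of C IDs with 10 CPM in both stages. Genes and chromosomes are not replicates of a stage, so these shares carry no test. Near-identical A and C copies are common in this genome, and how reads shared by copies were counted is not given in the sources used here.

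**Figure D5:**
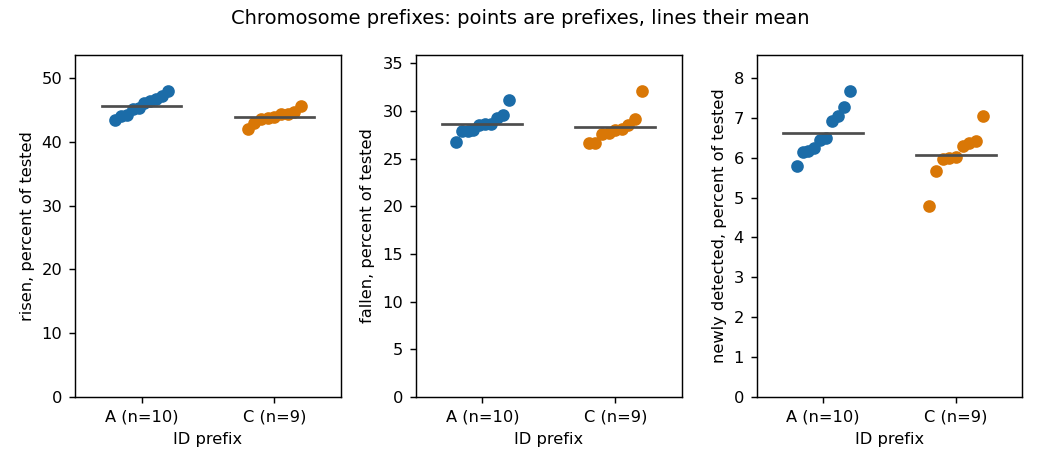
Percent of tested genes that rose, that fell and that were newly detected at 48 h (vertical axes), with 1 point per chromosome prefix of the IDs and a line at the mean of the prefixes. A prefixes range from 43.4% to 47.9% risen and C prefixes from 42.0% to 45.5%, and the ranges overlap in all 3 panels.

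Newly detected genes lay next to each other in the ID numbering more often than their share of all IDs. Consecutive IDs on a prefix differ by 10 in 99.9% of cases. The next ID was also newly detected for 6.87% of those that have one (257 of 3741), against 3.54% of all IDs. All IDs include those with too few counts to be tested. Of tested genes, 6.69% of A and 6.06% of C IDs were newly detected, but the 6.87% counts next IDs whether tested or not. The share among tested next IDs was not computed, so these values cannot show whether newly detected genes cluster. Among those that reached 10 CPM it was so for 3.16% (19 of 601), against 0.569% of all IDs. For genes with at least 300 CPM in both dry seed libraries the share was 2.16% (8 of 371), against 0.350%. Both comparisons are with all IDs, tested or not, and the shares of tested genes are not given here. Of the lost genes, 0 of 119 were followed by another lost gene. Neighbouring IDs may include tandem copies that share reads, so they are not independent and the shares carry no test.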

How the data were processed

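The authors deposited whole-number counts per gene for 8 libraries, and 1 line without a gene ID was dropped. The submitters' processing notes name edgeR, FastQC, HISAT2 and SAMtools, without versions. The read counter, strand setting, genome build and annotation are not given in the sources. Even numbers made up 80.5% to 85.4% of the values above 0, by library, as when both mates of a pair are counted, and then counting error exceeds what the counts imply. The deposited TMM signal entered an alternative only. No ID (0 of 106059) matched the Da-Ae gene table.

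Counts of all 8 libraries were filtered (filterByExpr), scaled by TMM and tested with the robust quasi-likelihood test of edgeR 4.0.16 in R 4.3.3, with 1 mean per tissue, 2-sided and with Benjamini-Hochberg adjustment over all 59062 genes. The SE is the log2 fold change over the square root of F. An offset of 0.1 CPM entered the ratios by level class. Alternatives used DESeq2 1.42.0 and limma 3.58.1. The procedure was tested on simulated data in which few genes changed. Most genes differ here, so that test cannot probe the assumption behind TMM scaling. Deviations from the tissue mean correlated at -0.026 to 0.011 between libraries of the same number, so the numbers pair no libraries. The genes named are the 2 with the largest gain and the 2 with the largest loss in mean CPM among genes that passed the test without overlap between libraries, and the 2 persisting ones of highest mean level over both stages. The comparison and its questions were chosen with earlier results of these data known. The division of abundant genes by level at 48 h, the classes by level at 48 h, the counts of genes crossing 1 CPM and the neighbouring IDs were added after values were seen.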

Additional observations from a re-analysis of the deposited data

How the results depend on the processing

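Directions depended on the scale for some genes. Total counts alone called 205 of the fallen genes risen, and the class from 3 to 10 CPM in dry seed had a median log2 change of 0.05 with TMM factors and -0.03 with DESeq2 size factors. Genes changed numbered 43217 and stayed within 1.5 times that number in all alternatives run. The 16802 fallen genes became 10853 with a 2-fold minimum, which by construction removes calls. The replicate block gave 25374 risen and 16131 fallen genes and 4211 persisting ones. With it the risen and fallen named genes kept direction and call, and the persisting named genes kept an interval within 2-fold. For genes with at least 100 CPM in dry seed, the median log2 change of -2.21 became -1.72 with total counts alone and -2.29 with DESeq2 size factors, and it lay between -2.24 and -2.19 without 1 germinating library. The share of them that fell, 85.4%, was 77.1%, 87.7% and, with classes from dry seed library 2, 85.0%, and it lay between 85.6% and 85.9% without 1 germinating library. Newly detected genes numbered 1345 at 5 CPM, and 4067 to 4850 without 1 library. Lost genes numbered 216 at 0.5 CPM, 33 at 5 CPM, 240 with up to 2 counts taken as 0, and 154 to 276 without 1 library, since fewer libraries have to be at 0. Persisting genes numbered 1951 with a 1.5-fold margin and 776 with a 50 CPM minimum, which by construction remove genes, and 3769 to 4314 without 1 library. Without the filter, A IDs rose more often than C IDs by 3.83 points and fell more often by 1.69 points, against 1.78 and 0.263. The cause was not tested. Without 1 library the differences ran from 1.75 to 2.46 and from 0.206 to 0.837 points. In 81 of 82 alternatives the risen and fallen named genes kept direction and call, and the persisting ones an interval within 2-fold. For the persisting ones neither direction nor test call was compared, and the 2-fold minimum was left out. Where an omission left 1 library of a tissue, it was taken to vary as the other tissues do.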
